A study of Capra hircus with 6 samples.

Results

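The 9 genes described here are the bone morphogenetic protein (BMP) ligands *BMP2* and *BMP4*, the secreted BMP antagonists *GREM1*, *NOG* and *CHRD*, the pseudoreceptor *BAMBI*, and the BMP target genes *ID1*, *ID2* and *ID3*. They were taken by name from a table of 15944 genes, and all 9 were listed. The cells were secondary hair follicle dermal papilla cells (SHF-DPCs) of the cashmere goat (*Capra hircus*, wild type), grown as primary cultures from anagen skin of goats aged 3 years and used at passages 4 to 7. RNA-seq compared 3 control libraries, cultured in medium without all-trans retinoic acid (ATRA), with 3 ATRA libraries, cultured with ATRA at 100 µM for 24 h. ATRA is the vitamin A metabolite that acts through the retinoic acid receptors. According to the study's methods, cultures came from separate animals, but no source used here says which control and ATRA libraries share an animal. These are cultured cells out of the follicle, so the epithelium that surrounds the papilla in skin was not part of the comparison.

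BMP ligands bind paired serine/threonine kinase receptors, which phosphorylate receptor Smads that enter the nucleus with SMAD4 and switch on target genes, the *ID* genes among the most direct. ID proteins are helix-loop-helix proteins without a basic DNA-binding region, and they hold E proteins away from DNA. Noggin, chordin and gremlin bind BMPs outside the cell and keep them from their receptors. In the hair follicle, BMPs from the dermis and papilla hold the epithelial stem cells at rest, antagonists from the papilla help growth to begin, and BMP signaling also maintains the papilla's ability to induce hair.

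Each library held between 35532339 and 38012771 counts. Counts were scaled by TMM, which corrects for differences in composition between libraries, and tested in edgeR over the 12588 genes that passed its expression filter. Here a gene rose or fell when its adjusted p was under 0.05. A DEG, by the thresholds of the study, had a log₂ fold change (log₂FC) above 1 or below -1 and an unadjusted p under 0.05. The ATRA response was broad. Of the genes tested, 40.9% rose and 38.7% fell, and 13.7% were DEGs higher and 17.3% DEGs lower with ATRA. The median log₂FC of all genes tested was 0.038, and dividing by library size alone in place of TMM would move it to 0.516. In the control group the dermal papilla list had its highest levels in genes that other mesenchymal cells also express. The means were 27440 normalized CPM (counts relative to the scaled library size) for *COL1A1*, the collagen type I chain, and 19158 for *VIM*, which encodes vimentin. The smooth muscle actin gene *ACTA2* had 6582 normalized CPM, *VCAN*, which encodes the papilla matrix protein versican, 1641, and the Wnt pathway genes *LEF1* and *WIF1* 16.1 and 2.87. The papilla markers *PROM1*, *ALPL* and *CORIN* had at most 1 count in any library. The study identified its cells by immunofluorescence for smooth muscle actin and for CD133, the protein of *PROM1*. Staining of protein and counts of RNA are different measures.

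Of the 9 members, 7 passed the expression filter, and all 7 were called. *BMP2*, *ID1*, *ID2* and *ID3* rose with ATRA, while *BMP4*, *GREM1* and *CHRD* fell. *NOG* and *BAMBI* had too few counts to be tested. All 7 were also DEGs, and in all 7 the ATRA libraries lay wholly on one side of the control libraries. Over all genes tested, groups did not overlap in 41.2% with ATRA higher and 39.0% with ATRA lower, so a call or a gap between the groups was common. By size of change, *GREM1* had the 120th lowest and *BMP4* the 250th lowest log₂FC of the 12588 genes, and *ID3* had the 348th highest. In bulk RNA, fewer cells of a type and less RNA per cell cannot be told apart. At this ATRA dose the study also reported lower viability, fewer cells making DNA and more apoptotic cells. The part of that state in the values given here was not tested.

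**Figure D1:**
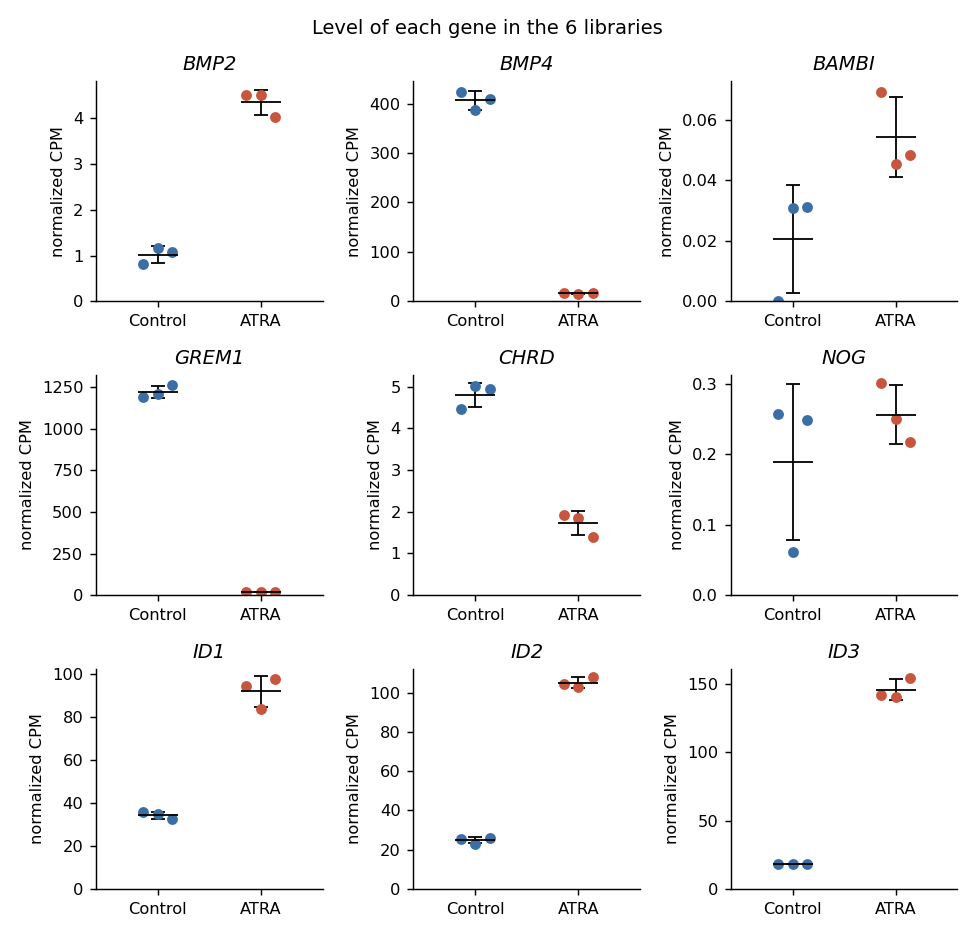
Level of each of the 9 genes in the 6 libraries, in normalized CPM on a linear axis that starts at 0 and differs between panels. Points are libraries, and bars are the mean and SD of 3 libraries. *BMP4*, *GREM1* and *CHRD* were lower in all 3 ATRA libraries, *BMP2* and the 3 *ID* genes were higher, and the groups overlapped for *NOG*.

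The ligands moved in opposite directions. *BMP4*, a ligand made by the dermal papilla in skin, had 13147, 12504 and 13143 counts in control libraries 1 to 3 and 708, 645 and 693 counts in ATRA libraries 1 to 3. Every ATRA library was far below every control library, and the spread within each group was small beside the gap. Its level was 406.4 ± 18.7 normalized CPM in control cultures and 15.9 ± 1.13 in ATRA cultures (SD, n = 3). *BMP4* fell 25.5-fold (log₂FC -4.67, standard error 0.0715, edgeR quasi-likelihood test, Benjamini-Hochberg adjusted p = 5.23e-20).

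*BMP2* encodes a ligand closely related to BMP4 that uses the same receptors. It had 25, 38 and 35 counts in the control libraries and 195, 199 and 167 counts in the ATRA libraries. The groups did not overlap, but the control level rested on few reads, and its coefficient of variation was 18.9%. The level was 1.02 ± 0.193 normalized CPM in control cultures and 4.35 ± 0.275 in ATRA cultures (SD, n = 3). *BMP2* rose 4.24-fold (log₂FC 2.08, standard error 0.195, edgeR, adjusted p = 1.58e-08). Its rise in CPM was small beside the loss of *BMP4*. The sum of both ligands was 407 ± 18.5 normalized CPM in control cultures and 20.3 ± 0.984 in ATRA cultures (SD, n = 3). *BMP2* made up 0.190% to 0.303% of the *BMP2* and *BMP4* counts in the control libraries and 19.4% to 23.6% in the ATRA libraries. Counts here were not divided by transcript length, so such shares can be compared between the groups but do not rank the genes.

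Among the antagonists, *GREM1* changed most. It encodes gremlin 1, a DAN family protein that binds BMP2 and BMP4. Control libraries held 36931, 39194 and 40546 *GREM1* counts, and ATRA libraries held 778, 799 and 799. *GREM1* took 0.1001% to 0.107% of all counts in the control libraries and 0.00212% to 0.00225% in the ATRA libraries. In normalized CPM the level was 1221 ± 37.2 in control cultures and 18.5 ± 0.724 in ATRA cultures (SD, n = 3). *GREM1* fell 66.1-fold (log₂FC -6.05, standard error 0.0718, edgeR, adjusted p = 3.98e-21), more than any other member.

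*CHRD* encodes chordin, which is cut by tolloid proteases to release the BMP it holds. It was a low-count gene, with 139, 162 and 159 counts in the control libraries and 83, 82 and 58 counts in the ATRA libraries. The control libraries were all above the ATRA libraries, among which ATRA 3 was lowest. The level was 4.81 ± 0.291 normalized CPM in control cultures and 1.73 ± 0.283 in ATRA cultures (SD, n = 3). *CHRD* fell 2.78-fold (log₂FC -1.47, standard error 0.174, edgeR, adjusted p = 3.66e-07). With library size alone as the scaling, its log₂FC was -0.996 and it was no longer a DEG.

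*NOG* encodes noggin, the antagonist best known for opening the growth phase of the hair cycle. It had 8, 2 and 8 counts in the control libraries and 13, 11 and 9 counts in the ATRA libraries. The libraries Control 1 and Control 3 overlapped the ATRA range once scaled, and Control 2 was lowest. The level was 0.190 ± 0.111 normalized CPM in control cultures and 0.256 ± 0.0420 in ATRA cultures (SD, n = 3). The log₂ ratio of these means was 0.43, and it was 0.014 without Control 2. A change in *NOG* was not detectable at this depth.

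The summed level of *GREM1*, *NOG* and *CHRD* was 1226 ± 37.4 normalized CPM in control cultures and 20.5 ± 0.407 in ATRA cultures (SD, n = 3). *GREM1* gave 99.6% of these antagonist counts in every control library and 89.0% to 92.3% in the ATRA libraries. Of the counts of the 3 antagonists and the 2 ligands together, the antagonists held 73.8% to 75.8% in the control libraries and 49.2% to 51.4% in the ATRA libraries. The sums of the ligands and of the antagonists were both lower with ATRA, and the direction of the share depended on which antagonists were counted. Over all listed antagonists and ligands of the wider pathway lists, antagonists summed to 4743 to 4862 normalized CPM in the control libraries and 1601 to 1718 in the ATRA libraries, and ligands to 607 to 634 in the control libraries and 29.5 to 31.2 in the ATRA libraries. The antagonist share was then 88.2% to 88.9% in the control libraries and 98.1% to 98.3% in the ATRA libraries, higher with ATRA. *FSTL1*, with 1337 ± 46.3 normalized CPM in ATRA cultures (SD, n = 3), made up most of that sum.

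*BAMBI* encodes a receptor-like protein without a kinase domain, which blocks signaling from BMP and activin receptors. It had 0, 1 and 1 counts in the control libraries and 3, 2 and 2 counts in the ATRA libraries. No library was above 3 counts, the floor used here, so no fold is given. *BAMBI* was at the limit of detection in both groups.

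The 3 *ID* genes rose together, to different extents. *ID1* had 1104, 1125 and 1043 counts in the control libraries and 4067, 3686 and 4033 counts in the ATRA libraries. Its level was 34.3 ± 1.61 normalized CPM in control cultures and 91.7 ± 7.24 in ATRA cultures (SD, n = 3), with ATRA 2 lowest among the ATRA libraries. *ID1* rose 2.68-fold (log₂FC 1.42, standard error 0.0718, edgeR, adjusted p = 1.72e-12). It was the smallest of the 3 increases.

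*ID2* had 790, 746 and 829 counts in the control libraries and 4529, 4534 and 4474 counts in the ATRA libraries. The level was 24.8 ± 1.49 normalized CPM in control cultures and 105.2 ± 2.69 in ATRA cultures (SD, n = 3). *ID2* rose 4.25-fold (log₂FC 2.09, standard error 0.0675, edgeR, adjusted p = 1.96e-15), close to the fold of *BMP2*.

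*ID3* had 569, 579 and 586 counts in the control libraries and 6150, 6197 and 6389 counts in the ATRA libraries. The control libraries were nearly equal, and each ATRA library was far above them. The level was 18.2 ± 0.228 normalized CPM in control cultures and 145.7 ± 7.56 in ATRA cultures (SD, n = 3). *ID3* rose 8.02-fold (log₂FC 3.00, standard error 0.0672, edgeR, adjusted p = 8.01e-18), the largest increase of any member.

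Together the 3 *ID* genes had 75.7 to 79.3 normalized CPM in the control libraries and 326.9 to 360.0 in the ATRA libraries. The mix of their counts changed. The share of *ID1* was 44.4% ± 1.78 in control cultures and 26.7% ± 1.05 in ATRA cultures (SD, n = 3). The share of *ID3* was 23.5% ± 0.381 in control cultures and 42.5% ± 0.712 in ATRA cultures (SD, n = 3). The share of *ID2* was 32.1% ± 1.64 in control cultures and 30.7% ± 0.707 in ATRA cultures (SD, n = 3), and there the libraries overlapped.

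**Figure D2:**
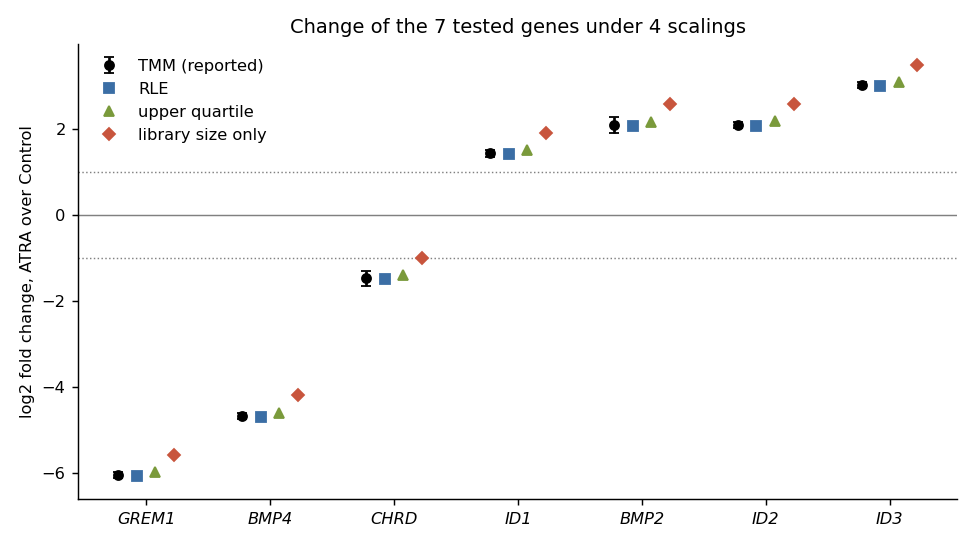
Change of the 7 tested genes, as log₂FC (ATRA over control) on the vertical axis, under TMM (black, with its standard error), RLE, upper quartile and library size alone. Dotted lines mark a log₂FC of 1 and -1. No gene changed direction under any of the 4 scalings, and *CHRD* reached -0.996 with library size alone.

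The shift of the whole ATRA group under library size alone shows how far a level depends on the scaling, and a ratio of 2 genes within a library does not depend on it. Such log₂ count ratios were compared for 6 pairs by an exact permutation test, two-sided, in which 3 libraries against 3 can give no p under 0.1. Each of the 6 reached that smallest value (exact p = 0.1, also after Benjamini-Hochberg adjustment over the 6 pairs), because the groups did not overlap in any of them. None can pass 0.05 in this design.

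The log₂ ratio of *ID1* to *ID2* was 0.48, 0.59 and 0.33 in the control libraries and -0.16, -0.30 and -0.15 in the ATRA libraries. The difference (ATRA minus control) was -0.67 with a standard error of 0.0901. That of *ID1* to *ID3* went from 0.91 ± 0.0724 to -0.67 ± 0.0766 (SD, n = 3), a difference of -1.58 with a standard error of 0.0609. That of *ID2* to *ID3* went from 0.45 ± 0.0713 to -0.47 ± 0.0395 (SD, n = 3), a difference of -0.91 with a standard error of 0.0471. Measured within libraries, *ID3* thus gained on *ID2*, and *ID2* on *ID1*.

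The log₂ ratio of *BMP2* to *BMP4* was -9.01, -8.34 and -8.53 in the control libraries and -1.86, -1.69 and -2.05 in the ATRA libraries. The difference was 6.76 with a standard error of 0.223. That of *GREM1* to *BMP4* was 1.49, 1.65 and 1.63 in the control libraries and 0.14, 0.31 and 0.21 in the ATRA libraries, a difference of -1.37 with a standard error of 0.0704. Gremlin transcripts were thus reduced more than those of the ligand BMP4. That of *NOG* to *GREM1* went from -12.75 ± 1.03 to -6.12 ± 0.273 (SD, n = 3), where the wide control spread came from the few *NOG* counts.

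**Figure D3:**
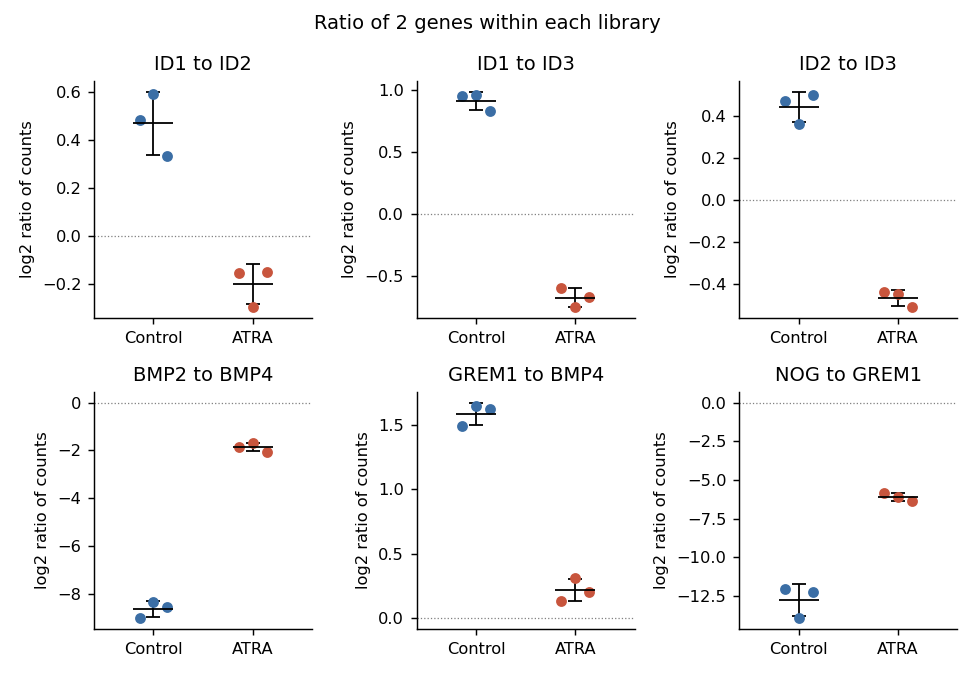
Log₂ ratio of the counts of 2 genes within each library, for 6 pairs, with 0.5 added to each count. Points are libraries and bars are the mean and SD of 3 libraries, and the dotted line marks equal counts. In each panel the 3 ATRA libraries lie apart from the 3 control libraries, and *BMP2* to *BMP4* and *NOG* to *GREM1* move by over 6 log₂ units.

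The other genes of the pathway were described from 7 lists ordered by role, which with the members held 88 genes, of which 71 were listed and 57 were tested. Apart from the members, 21 of 50 tested genes rose and 23 fell, and 6 were not called. Their median log₂FC was -0.089, beside 0.038 over all genes tested, and 8 were DEGs higher and 11 DEGs lower. The directions differed by role, in counts by role that include the members. Without the members, 5 of 6 antagonists fell and 1 rose. Of the 8 ID genes and targets that were not members, 5 rose and 3 fell. Over all genes tested, 40.9% rose and 38.7% fell. The lists were compared by these counts and medians alone.

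**Figure D4:**
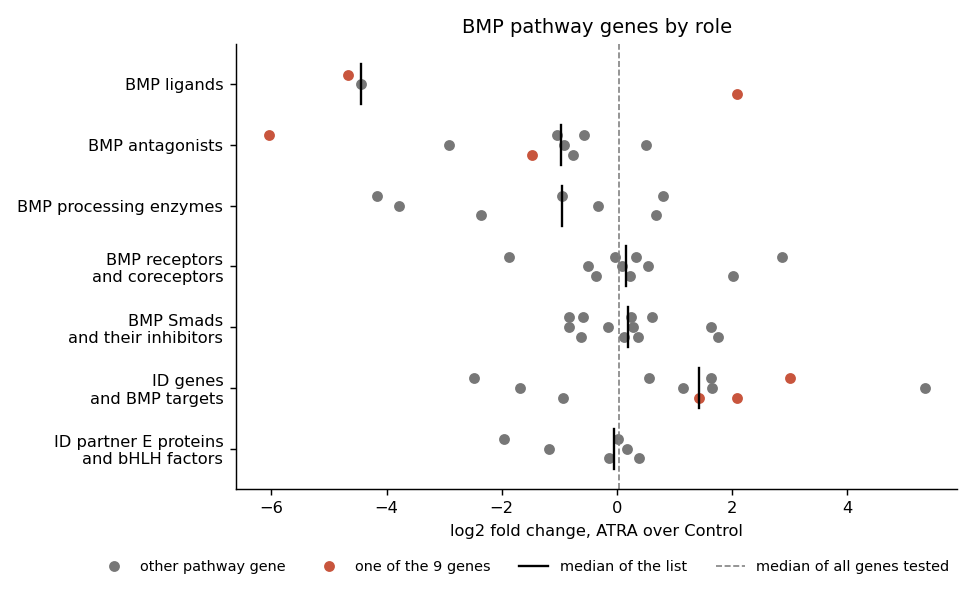
Log₂FC (ATRA over control, horizontal axis) of the 57 tested genes of the BMP pathway, in 7 rows by role. Members are in red, other genes in grey, the black bar is the median of the list and the dashed line the median of all genes tested. Ligands, antagonists and processing enzymes had medians from -4.45 to -0.95 and the ID genes and targets 1.42. With library size alone, *FURIN*, *BMPR1A*, *BMPR1B*, *SMAD7* and *TWIST1* lay on the other side of 0, and with upper quartile scaling *BMPR1B* did.

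Of 14 ligands, 8 were listed and 3 tested. Beside *BMP2* and *BMP4* this was *GDF6*, a BMP family growth factor, which fell from 216 ± 5.68 to 9.89 ± 0.733 normalized CPM (log₂FC -4.45, standard error 0.0716, edgeR, adjusted p = 9.17e-20). The other listed ligands had at most 10 counts in any library, *BMP6* and *BMP7* at most 1. Thus *BMP2* was the only tested ligand of the list that rose.

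Of 8 antagonists tested, 7 fell and 1 rose, with a median log₂FC of -0.97. *CRIM1*, a membrane protein that binds BMPs in the producing cell, fell from 471 ± 28.9 to 62.3 ± 9.84 normalized CPM (log₂FC -2.92, standard error 0.0924, edgeR, adjusted p = 3.07e-14). *FSTL1*, a secreted follistatin-like protein, fell from 2736 ± 38.1 to 1337 ± 46.3 normalized CPM (log₂FC -1.03, standard error 0.0571). The antagonist that rose was *FST*, follistatin, which binds activins most tightly, with a log₂FC of 0.51 (standard error 0.0796). *FSTL3* fell by 0.92 and *TWSG1* by 0.56 on the log₂ scale, but with library size alone *TWSG1* had a log₂FC of -0.08 and was not called. Of the antagonists under the filter, *BMPER* had 1, 0 and 0 counts in the control libraries and 15, 8 and 11 in the ATRA libraries.

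The list of processing enzymes holds proteases that cut BMP precursors or chordin and one enhancer protein, and 5 of 7 genes fell and 2 rose, with a median log₂FC of -0.95. *PCSK6*, a proprotein convertase, fell from 158 ± 2.86 to 8.83 ± 0.654 normalized CPM (log₂FC -4.16, standard error 0.0728, edgeR, adjusted p = 2.95e-19). *TLL2*, a tolloid-like protease, had a log₂FC of -3.79 (standard error 0.0927), and *BMP1*, the tolloid protease that cuts chordin and procollagen, of -0.95 (standard error 0.0569). *PCOLCE*, which enhances the cutting of procollagen, fell by 2.36 on the log₂ scale. *FURIN*, a convertase that cuts the BMP4 precursor, had a log₂FC of -0.33, which became 0.14 with library size alone. The 2 that rose were also convertases. *PCSK5* had a log₂FC of 0.80 (standard error 0.229, not called with R's t.test function) and *PCSK7* of 0.67 (standard error 0.0909).

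The receptors showed no common direction, with 5 of 10 higher, 3 lower and 2 not called, and a median log₂FC of 0.15. *BMPR2*, the type II BMP receptor, was not called (log₂FC 0.08, standard error 0.0946, edgeR, adjusted p = 0.433), and its sign turned without ATRA 2. Among the type I receptors, *BMPR1A* had a log₂FC of -0.36 that became 0.12 with library size alone. *ACVR1* rose by a log₂FC of 0.22 (standard error 0.0736), a call lost without ATRA 2 and with R's t.test function. *BMPR1B* was not called (log₂FC -0.04). *ACVR2B*, a type II receptor of activins that also binds BMPs, rose from 2.22 ± 0.167 to 16.1 ± 0.856 normalized CPM (log₂FC 2.86, standard error 0.121, edgeR, adjusted p = 1.17e-13). *NEO1*, the receptor of the repulsive guidance molecules, rose with a log₂FC of 2.02 (standard error 0.101), and *RGMA*, one of its ligands and a BMP coreceptor, fell with a log₂FC of -1.87 (standard error 0.252). *ENG*, endoglin, fell by 0.51 on the log₂ scale, but it was not called with library size alone (log₂FC -0.03).

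Of the 12 Smads and their inhibitors, 6 rose, 4 fell and 2 were not called, with a median log₂FC of 0.18. Among the receptor Smads of BMP signaling, *SMAD1* was not called (log₂FC 0.12, standard error 0.0822), *SMAD5* rose by a log₂FC of 0.27 (standard error 0.0842), and *SMAD9* fell by 0.62 on the log₂ scale (standard error 0.106), a call lost with library size alone (log₂FC -0.14). *SMAD4*, the Smad shared by BMP and TGF-β signaling, rose by a log₂FC of 0.25 (standard error 0.0659). Without ATRA 2 these increases were 0.15 for *SMAD5* and 0.16 for *SMAD4*, and neither was called with R's t.test function, nor *SMAD5* without Control 1. The 2 largest changes were increases of inhibitors. *SMAD6*, an inhibitory Smad that is itself a BMP target, rose from 23.4 ± 1.77 to 72.5 ± 3.37 normalized CPM (log₂FC 1.63, standard error 0.0739, edgeR, adjusted p = 3.17e-13). *TOB1*, which binds and restrains BMP Smads, rose from 15.2 ± 0.356 to 51.1 ± 4.10 normalized CPM (log₂FC 1.75, standard error 0.0797, edgeR, adjusted p = 3.44e-13). *SMURF2*, a ubiquitin ligase that marks Smads and receptors for removal, fell by 0.82 on the log₂ scale. The other inhibitors went both ways. *SKI* (log₂FC -0.83) and *TOB2* (-0.59, not called with library size alone) fell, *SKIL* (0.60) and *SMURF1* (0.36) rose, and *SMAD7* was not called (-0.16).

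The list of ID genes and other BMP targets, which includes 3 members, had 8 of 11 genes higher and 3 lower. The median log₂FC of 1.42 was the value of *ID1*, a member. *ID4*, the fourth ID gene, rose as well, from 0.719 ± 0.205 to 2.25 ± 0.766 normalized CPM (log₂FC 1.64, standard error 0.297, edgeR, adjusted p = 6.53e-05), so all ID genes tested were higher with ATRA. *DLX3*, a homeobox gene of the hair matrix and bone, rose from 1.03 ± 0.243 to 41.8 ± 1.51 normalized CPM (log₂FC 5.34, standard error 0.126, edgeR, adjusted p = 1.64e-17). *TBX3*, a T-box repressor, had a log₂FC of 1.65 (standard error 0.0965), and *RUNX2*, the osteoblast factor, of 0.56 (standard error 0.0918). The homeobox pair *MSX1* and *MSX2* diverged, with log₂FC values of 1.14 (standard error 0.0986) and -1.68 (standard error 0.105). *HEY1*, a target shared with Notch, fell by 0.94 on the log₂ scale. The largest fall was that of *ATOH8*, with few counts, 17, 20 and 14 in the control libraries and 7, 1 and 4 in the ATRA libraries. Its log₂FC was -2.48 (standard error 0.517).

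The partners of the ID proteins had no common direction, with 2 of 6 higher, 2 lower and 2 not called. *TCF4*, an E protein, fell from 128 ± 5.27 to 32.9 ± 2.68 normalized CPM (log₂FC -1.96, standard error 0.0693, edgeR, adjusted p = 7.34e-15). *TCF3*, another E protein, rose from 48.6 ± 1.57 to 63.3 ± 1.88 normalized CPM (log₂FC 0.38, standard error 0.0631, edgeR, adjusted p = 2.33e-05). *TCF12*, also an E protein, had a log₂FC of 0.17 with overlapping libraries (edgeR, adjusted p = 0.0403), a call that most alternatives did not keep. *TWIST1*, a mesenchymal bHLH factor, was not called (log₂FC -0.14, edgeR, adjusted p = 0.0523), but it was called lower in 5 alternatives, among them RLE (log₂FC -0.16, adjusted p = 0.0285 in edgeR), and its log₂FC was 0.34 with library size alone. *HAND2*, another bHLH factor, fell by 1.18 on the log₂ scale. Of the E proteins, *TCF4* thus fell and *TCF3* rose.

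The genes whose pattern over the 6 libraries was most like that of *ID3* and *GREM1*, the members with the largest change in each direction, were found by the root mean square difference of centred log₂ CPM. For *ID3* these were *SLC2A1*, the glucose transporter GLUT1 (difference 0.0617), *STEAP1* (0.0675) and *ACKR3*, a chemokine receptor (0.0810). Their log₂FC values were 2.92, 3.06 and 2.92, beside 3.00 for *ID3*. For *GREM1* they were *THY1*, a mesenchymal surface marker (0.0714), *ASPN*, a matrix proteoglycan (0.0854), and *ADAMTS6*, a matrix protease (0.112). Their log₂FC values were -6.07, -6.07 and -6.18, beside -6.05 for *GREM1*. The likeness is a description, set mainly by the size of the change between the groups.

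The nearest protein-coding genes on either side in the RefSeq gene order of the assembly ARS1.2 moved in both directions. Beside *ID3* lie *E2F2*, a cell cycle factor with 54 to 58 counts in the control libraries and 0 to 2 in the ATRA libraries, and the ribosomal protein gene *RPL11*, with a log₂FC of 0.41 (standard error 0.0768). Beside *ID1* lie *HM13*, with a log₂FC of 0.62 (standard error 0.0613), and *LOC102179296*, with 3.10 (standard error 0.193). Beside *ID2* lie *RNF144A*, with a log₂FC of -0.97 (standard error 0.0580), and *KIDINS220*, with -0.33 (standard error 0.0610), which became 0.15 with library size alone. *GREM1* has *FMN1* on one side, which held 187 to 248 counts in the control libraries and 162 to 221 in the ATRA libraries (log₂FC -0.57, standard error 0.144, and -0.09 and not called with library size alone), and *SCG5* on the other, with at most 6 counts. Beside *BMP4* lie *CDKN3*, a cell cycle phosphatase gene with a log₂FC of -3.88 (standard error 0.218), and *LOC108636981*, which was not called (log₂FC -0.02). Of the remaining tested neighbours, *FERMT1* beside *BMP2* had a log₂FC of -1.80, *THPO* beside *CHRD* of -2.47, *C19H17orf67* beside *NOG* of 0.57 and *WAC* beside *BAMBI* of 0.48. No test of the neighbours as a group was made.

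Marker genes of cell types changed along with these members. In the dermal papilla list, 9 of 10 tested genes fell and none rose, beside 38.7% lower and 40.9% higher over all genes tested. The summed level of the list was 55525 to 58400 normalized CPM in the control libraries and 2451 to 2550 in the ATRA libraries. *COL1A1* and *VIM* made up most of that sum in both groups. The falls included *COL1A1* (log₂FC -5.62), *VCAN* (-5.66), *THY1* (-6.07), *WIF1* (-4.25), *PDGFRA* (-2.74) and *VIM* (-3.59). Those of *LEF1* (-0.54) and *PDGFRB* (-0.44) were much smaller, and *SOX18* was not called (log₂FC 0.47). *SOX2*, not tested, had 5, 0 and 2 counts in the control libraries and 10, 16 and 9 in the ATRA libraries. *ACTA2* fell by 9.62 on the log₂ scale and is uncertain, because the sources used here do not say how reads shared with *ACTG2* were counted. Keratinocyte markers summed to 0.436 to 0.741 normalized CPM in the control libraries and 0.121 to 0.159 in the ATRA libraries. No keratinocyte marker passed the expression filter, so a change in them was not tested. Control counts of *KRT14* were 20, 14 and 10, against 3, 0 and 0 with ATRA. Those of *KRT5* were 2, 7 and 3, against 0 in each ATRA library. *CDH1* went the other way, from 0 in each control library to 2, 1 and 2 with ATRA. So did *EPCAM*, from 0, 1 and 0 to 1, 5 and 2, with overlapping libraries. Endothelial markers summed to 20.4 to 23.2 normalized CPM in the control libraries and 16.4 to 19.6 in the ATRA libraries. Most of that sum was *EGFL7*, which fell from 21.1 to 10.2 normalized CPM (log₂FC -1.04). *PECAM1* had 0 counts in every control library and 206 to 340 in the ATRA libraries. *TEK* rose (log₂FC 0.87) and *VWF* was not called (log₂FC 0.06). *KDR*, not tested, had 5, 6 and 10 counts in the control libraries and 2, 1 and 0 in the ATRA libraries. *CDH5* had at most 1 count in any library. Leukocyte markers summed to 2.69 to 5.86 normalized CPM in the control libraries and 10.8 to 12.1 in the ATRA libraries. *CD68*, the only one of them tested, made up most of that sum and was higher (log₂FC 1.41). Melanocyte markers summed to 16.1 to 17.6 normalized CPM in the control libraries and 32.2 to 39.0 in the ATRA libraries, with *MITF* higher (log₂FC 1.33) and *PMEL* lower (log₂FC -0.90). The part of these differences in the values of the BMP and ID genes was not tested.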

How the data were processed

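SHF-DPC mRNA was sequenced from 3 control and 3 ATRA libraries. Reads were trimmed by the authors (fastp, TrimGalore), who deposited whole-number read counts per gene, not normalized, with GO and KEGG annotation. The submitters' processing notes name HISAT2, featureCounts and DESeq2, without versions. The genome build, the strand setting and the treatment of reads shared between genes are not given in the sources used here.

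From the counts, genes were kept by edgeR's filterByExpr (12588 of 15944), scaled by TMM and tested by edgeR's robust quasi-likelihood test, two-sided, over all 6 libraries, with p-values adjusted by Benjamini-Hochberg over all of these genes. DEGs were called at |log₂FC| above 1 with an unadjusted p under 0.05, as in the study's methods. The R t.test function that they name was run as an alternative. Normalized CPM uses the library's total over the genes kept times its TMM factor (0.842 to 0.851 in the control and 1.16 to 1.20 in the ATRA libraries). Fold changes include a prior of 0.125 counts, and standard errors came from the F statistic (|log₂FC| divided by its square root). Ratios used counts plus 0.5. The errors cover only the spread of 3 cultures per group. The sample titles and the study's methods name no batch, so a batch difference could not be checked. No library pair of a group matched within sampling noise (chi-square per degree of freedom 4.48 to 16.0).

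The members and lists were chosen with earlier results of these data known. Named besides the members were, per list, up to 4 genes in each direction with |log₂FC| above 1, an adjusted p under 0.05 and a mean CPM of at least 1, up to 2 abundant genes within |log₂FC| of 1, and the 3 genes most like *ID3* and *GREM1*. *FST*, *BMPER*, *PCSK5*, *PCSK7*, *BMPR1A*, *BMPR1B*, *ACVR1*, *SMAD1*, *SMAD5*, *SMAD7*, *SMAD9*, *SKI*, *SKIL*, *SMURF1*, *TOB2*, *TCF3*, *ID4*, *MSX1*, *ATOH8*, *BMP6*, *BMP7*, the neighbours and the markers named were singled out after values were seen. Sums and shares were also added then. The neighbours come from the RefSeq gene table (ARS1.2), used for names and order only. Promoter and protein sequences were not analysed here.

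Alternatives were RLE, upper quartile and library size scaling, no filter, DESeq2, R's t.test function on log₂(CPM + 1), a replicate block and each library left out. The scripts were tested on simulated counts of 12490 genes, 200 of them changed: edgeR found 200 with 15 false calls, DESeq2 199 with 17, and R's t.test function 94 with 2. The simulation gave all genes the same dispersion and changed few genes, equally in both directions. It therefore did not test the scaling under a response as broad as that seen here. Versions were edgeR 4.0.16 and DESeq2 1.42.0 in R 4.3.3, with Python 3.11.15 for summaries and matplotlib 3.10.9 for figures.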

Additional observations from a re-analysis of the deposited data

How the results depend on the processing

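The log₂FC of the 7 tested members kept its direction and its call in all 91 alternatives run, and all 42 alternatives of the 6 ratios kept their direction. *BMP2* ranged from 1.41 with R's t.test function to 2.56 with library size alone, and *CHRD* from -1.56 to -0.996. With library size alone, 7921 genes were higher and 2861 lower, in place of 5151 and 4877, and 3390 DEGs were higher in place of 1730. R's t.test function gave 1093 DEGs higher. Of 364 alternatives for the pathway genes named by the rule, 344 kept direction and call, 11 lost a call, 6 gained one and 3 turned. Those that turned were *FURIN* (0.14) and *TWIST1* (0.34) with library size alone, and *BMPR2* without ATRA 2, whose values with 1 library left out ranged from -0.0801 to 0.18. For 49 other genes, with 637 alternatives added after seeing the data, 606 kept direction and call, 12 lost a call, 4 gained one and 15 turned. R's t.test function lost *SMAD5*, *CD68*, *RPL11*, *C19H17orf67*, *BMPR1A*, *ACVR1* and *PCSK5*, and library size alone lost *SMAD9*, *TOB2* and *FMN1*. Library size alone turned *BMPR1A* (0.12), *BMPR1B* (0.44), *SMAD7* (0.32), *LOC108636981* (0.46) and *KIDINS220* (0.15), and upper quartile scaling turned *BMPR1B* (0.0385) and *LOC108636981* (0.0592). With 1 library left out, *BMPR1B* ranged from -0.24 to 0.24, *TWIST2* from -0.015 to 0.0662 and *LOC108636981* from -0.1008 to 0.0462. The causes were not tested. For *NOG*, 1 library left out gave 0.01 to 0.72, library size alone 0.91 and no filter 0.42 (edgeR, adjusted p = 0.518), and its other alternatives were not run.

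Same-numbered control and ATRA libraries deviated together with correlations of 0.0892, 0.0299 and -0.0764, and Control 3 correlated best with ATRA 2, so the numbers were not taken as pairs. The replicate block gave 5123 genes higher and 4869 lower, 1731 and 2178 DEGs, and the same 4 members higher and 3 lower. The members with few counts, *NOG* and *BAMBI*, are limited by depth.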
